A study of Homo sapiens with 18 samples.

Results

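The 10 genes described here carry out or supply mitochondrial fatty acid oxidation in HepG2 cells, a human line derived from a hepatocyte-like liver tumour. They were CPT1A, CPT2, SLC25A20, CRAT, CROT, SLC22A5, PDK4, ACADM, ACADVL and HADHA. Each gene was taken by symbol, and each symbol had 1 single-gene feature, so the 10 genes stood for 10 of the 20546 array features with a gene symbol and 10 of 32321 features in all. The arrays measured RNA in 3 pools of stable HepG2 transformants. The TRα1 pool combined 6 clones that carried a plasmid for thyroid hormone receptor α1, the TRβ1 pool 12 clones with a plasmid for thyroid hormone receptor β1, and the control pool 11 clones with the empty plasmid. Each pool spent 6 h with 100 nM triiodothyronine (T3, the hormone form that the receptors bind most tightly) or with ethanol alone as vehicle (0 nM T3), in medium with 10% serum stripped of hormones, and each of the 6 groups had 3 arrays from separate biological repeats. All clones also came through drug selection for the plasmid. Each construct was present in a single pool, so the construct and the clones that carry it cannot be told apart.

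Long-chain fatty acids enter the mitochondrial matrix bound to carnitine. CPT1A, the liver form of carnitine palmitoyltransferase on the outer membrane, moves the acyl group from coenzyme A to carnitine and is the step that malonyl-CoA inhibits. SLC25A20, the carnitine-acylcarnitine carrier, takes acylcarnitine across the inner membrane, and CPT2 returns the acyl group to coenzyme A inside. The acyl-CoA dehydrogenases ACADVL and ACADM and the trifunctional protein subunit HADHA then shorten the chain. T3 binds nuclear receptors that act on genes, and Cpt1a is a known T3-responsive gene of rodent liver, where in the rat its hormone response element lies well upstream of the core promoter.

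The 250 bases before the annotated start of the 3 shuttle genes are shown because CPT1A responded to T3 and its partners in the shuttle did not pass the test. They are RefSeq sequences of GRCh38.p14, read 5′ to 3′ on the strand of the gene, with capitals at each GGGCGG on either strand, which reads CCGCCC on the other strand. CPT1A has chr11:68844278-68844527 on the minus strand, CPT2 has chr1:53196574-53196823 on the plus strand, and SLC25A20 has chr3:48898883-48899132 on the minus strand.
CPT1A: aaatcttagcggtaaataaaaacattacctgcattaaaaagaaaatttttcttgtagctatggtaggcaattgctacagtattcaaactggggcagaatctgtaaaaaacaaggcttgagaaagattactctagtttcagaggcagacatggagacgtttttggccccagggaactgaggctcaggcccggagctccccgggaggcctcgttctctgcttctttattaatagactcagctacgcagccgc
CPT2: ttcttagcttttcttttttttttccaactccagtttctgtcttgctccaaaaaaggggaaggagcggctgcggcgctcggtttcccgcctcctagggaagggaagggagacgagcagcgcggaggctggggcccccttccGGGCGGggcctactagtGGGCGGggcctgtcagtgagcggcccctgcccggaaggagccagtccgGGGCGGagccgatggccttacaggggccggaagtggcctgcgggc
SLC25A20: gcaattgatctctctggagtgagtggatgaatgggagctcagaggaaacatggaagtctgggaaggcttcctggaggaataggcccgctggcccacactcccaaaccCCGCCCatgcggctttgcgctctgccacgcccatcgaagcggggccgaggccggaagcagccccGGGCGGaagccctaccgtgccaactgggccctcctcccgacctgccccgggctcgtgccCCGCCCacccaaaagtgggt
The CPT1A window held 0 copies of GGGCGG, and those of CPT2 and SLC25A20 held 3 each. This hexamer, counted on both strands, was present in 42.64% of 35116 windows of the same length before annotated gene starts. The receptor half-site AGGTCA, on both strands, was found in 0 of 10 windows for the 9 genes with an entry, of which ACADVL had 2 windows, against 12.08% of all windows. The direct repeat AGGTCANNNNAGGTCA, which contains that half-site, was found in 0 of the 10 and in 0.01424% of all windows. A window without a match says only that these letters are not in these bases. Other starts of these genes were not examined, and whether HepG2 cells use the start behind the CPT1A window is not known here. The windows therefore do not describe the whole promoter of a gene.

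Values are log2 levels after robust multi-array averaging (RMA) by the authors, and array medians lay between 5.31 and 5.49. Of 8 hepatocyte markers, 7 were measured, with means between 10.7 and 12.7 on the log2 scale. The endothelial markers lay between 4.02 and 4.80, the fibroblast or stellate markers between 2.20 and 6.33, and the leukocyte markers between 2.46 and 8.50, with CD68 at the top. The 4 cholangiocyte markers lay between 5.57 and 10.7, with KRT7 lowest, SOX9 at 8.24, KRT19 at 9.84 and EPCAM highest. All pools are clones of a single cell line. In bulk RNA, the share of cells with a marker and its level per cell cannot be told apart. THRA, the gene of TRα, stood at 7.96 ± 0.26 (SD, n = 3) on T3 and 7.50 ± 0.10 on vehicle in the TRα1 pool, against 7.01 ± 0.21 and 7.06 ± 0.12 in the control pool. THRB, the gene of TRβ, stood at 7.42 ± 0.05 on T3 and 6.95 ± 0.07 on vehicle in the TRβ1 pool, against 7.07 ± 0.16 and 6.65 ± 0.24 in the control pool. On vehicle, neither of these differences from the control pool passed the threshold of 0.05 (limma adjusted p = 0.533 for THRA in the TRα1 pool). THRB was also higher on T3 over the 3 pools, by 0.45 (limma adjusted p = 0.0237). Which parts of the plasmid transcripts the probes cover is not known here.

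The comparison of T3 with vehicle within each pool asks which steps of fatty acid entry and breakdown respond to hormone within 6 h. CPT1A was the single gene of the 10 that rose. It approximately doubled in the TRα1 pool, where it rose 2.13-fold. The other 9 genes did not pass in any T3 comparison. Averaged over the 3 pools, none had a 95% interval reaching above 0.41 on the log2 scale, a 1.33-fold difference. In the TRα1 pool alone the intervals reached higher, to 0.73 (1.65-fold) for SLC25A20 and 0.59 (1.51-fold) for SLC22A5.

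CPT1A had log2 levels of 7.56, 8.15 and 7.68 on T3 in replicates 1, 2 and 3 of the TRα1 pool, against 6.58, 6.98 and 6.56 on vehicle. In the TRβ1 pool it had 7.54, 8.01 and 7.40 on T3, against 6.62, 6.79 and 6.59 on vehicle. In the control pool, which has no added receptor, it had 6.76, 7.28 and 7.09 on T3, against 6.39, 6.60 and 6.45 on vehicle. Every T3 array stood above every vehicle array of its own pool, a separation in that direction shown by 2.64% of all features for TRα1, by 2.4% for TRβ1 and by 2.18% for control. On T3 the highest control array, 7.28, lay below the lowest receptor-pool array, 7.40, a separation that 2.18% of all features showed.

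**Figure D1:**
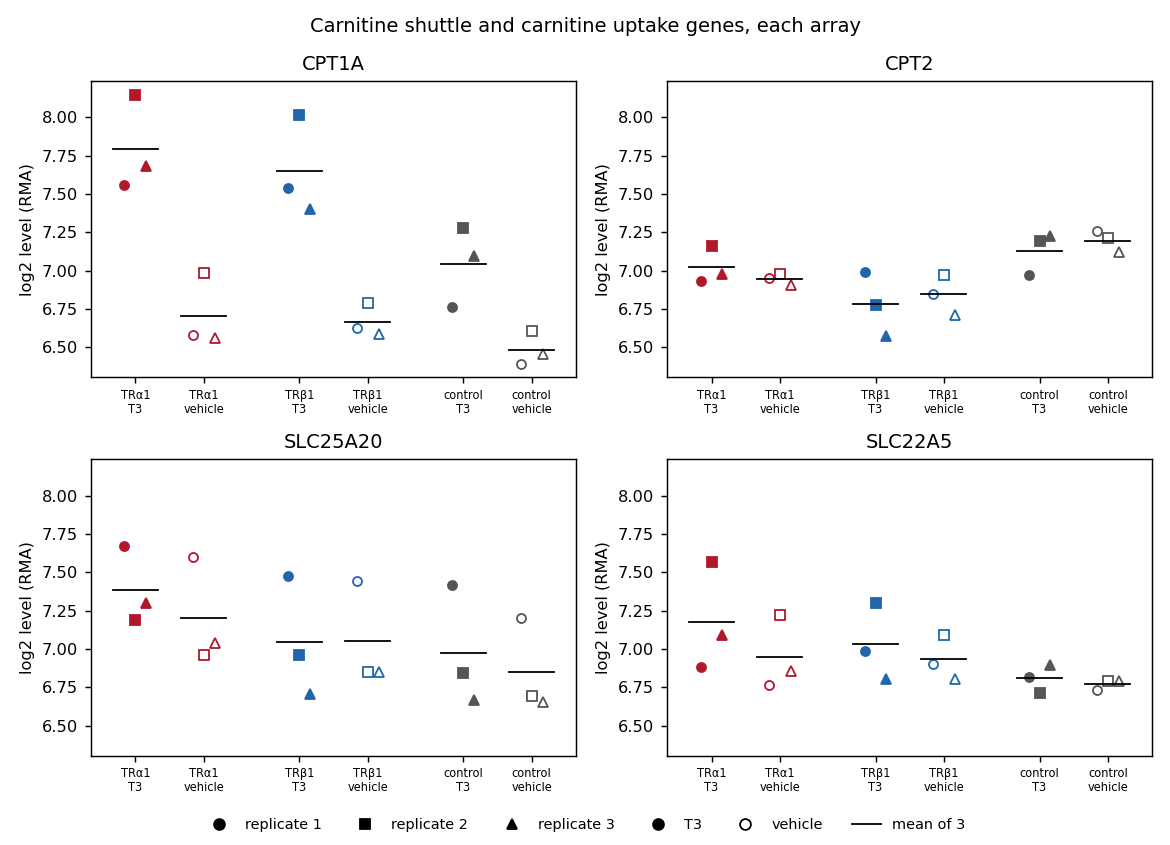
Log2 level (RMA) of CPT1A, CPT2, SLC25A20 and SLC22A5 on each of the 18 arrays, by pool, with T3 as filled and vehicle as open symbols; the symbol shape gives the replicate number and the bar the mean of 3. CPT1A on T3 sits at 7.40 or above in both receptor pools and at 7.28 or below in the control pool, while T3 and vehicle overlap in every pool for the other 3 genes.

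The T3 response of CPT1A in the TRα1 pool was 1.09 ± 0.19 (SE, n = 3 arrays per group) on the log2 scale, with a 95% interval of 0.69 to 1.48 and a limma adjusted p of 0.0255. Of all features tested, 0.131% passed in this comparison. With the replicate number as a block in the model, since arrays of the same number varied together, 0.667% passed and the adjusted p for CPT1A was 3.44e-05. Without the block the call was lost when any of 4 of the 6 arrays was left out, vehicle replicates 1 and 3 and T3 replicates 2 and 3, with responses of 0.91 to 1.15 and adjusted p of 0.0682 to 0.212. Without the block it was also lost when all 32321 features were tested (limma adjusted p = 0.0547) and in a fit to the 6 arrays of this pool alone (0.438). With the block it held without any single array of the pool, at adjusted p of 1.89e-04 to 5.41e-04.

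In the TRβ1 pool the CPT1A response was 0.98 ± 0.19 (0.59 to 1.38), a 1.98-fold difference. It did not pass without the block, with a limma adjusted p of 0.0801, where 0.073% of features passed. With the block it passed at an adjusted p of 1.54e-04, where 0.477% passed. CPT1A differed by 0.56 ± 0.19 (0.16 to 0.96), 1.47-fold, in the empty-plasmid pool and passed in neither fit (limma adjusted p = 1.0 when unblocked, 0.0560 when blocked). The shares of features that passed there were 0.00973% and 0.0973%. Over the 3 pools together CPT1A rose by 0.88 ± 0.11 (0.65 to 1.11), 1.84-fold (limma adjusted p = 5.08e-04 when unblocked, 4.35e-07 when blocked), where 0.423% and 1.69% of features passed. Without the block the call was lost when the 6 arrays of replicate 3 were left out (limma adjusted p = 0.146), while the response stayed at 0.89.

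Taken by replicate number, the CPT1A response was 0.98, 1.17 and 1.12 for TRα1, 0.92, 1.22 and 0.81 for TRβ1, and 0.37, 0.67 and 0.64 for control. All 9 pairs were higher on T3, as were those of 2.04% of features. Each of the 6 receptor-pool responses also exceeded each of the 3 control responses, which was so for 1.58% of features. The test of the difference itself did not pass. TRα1 minus control was 0.53 ± 0.26 (-0.03 to 1.09), with an unadjusted limma p of 0.0628 when unblocked and 0.00216 when blocked, and adjusted p of 1.0 and 0.792. TRβ1 minus control was 0.42 ± 0.26 (-0.14 to 0.98), with limma adjusted p of 1.0 in both fits and unadjusted p of 0.130 when unblocked and 0.00985 when blocked. With the block the intervals were 0.22 to 0.83 for TRα1 and 0.12 to 0.73 for TRβ1, both above 0 before any adjustment for the number of features, while the unblocked intervals included 0. Both comparisons use the same control arrays. TRβ1 minus TRα1 was -0.11 ± 0.26 (-0.67 to 0.45), an interval wide enough for either isoform to give the larger response. In limma, 0 features passed any of these 3 comparisons without the block, and 6 (0.0292%), 0 and 0 passed with it. Without the block, 286 (1.39%), 275 (1.34%) and 223 (1.09%) features had an unadjusted p under 0.05, shares smaller than that threshold itself. With the block the shares were larger, at 3.75%, 4.06% and 3.01%.

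**Figure D2:**
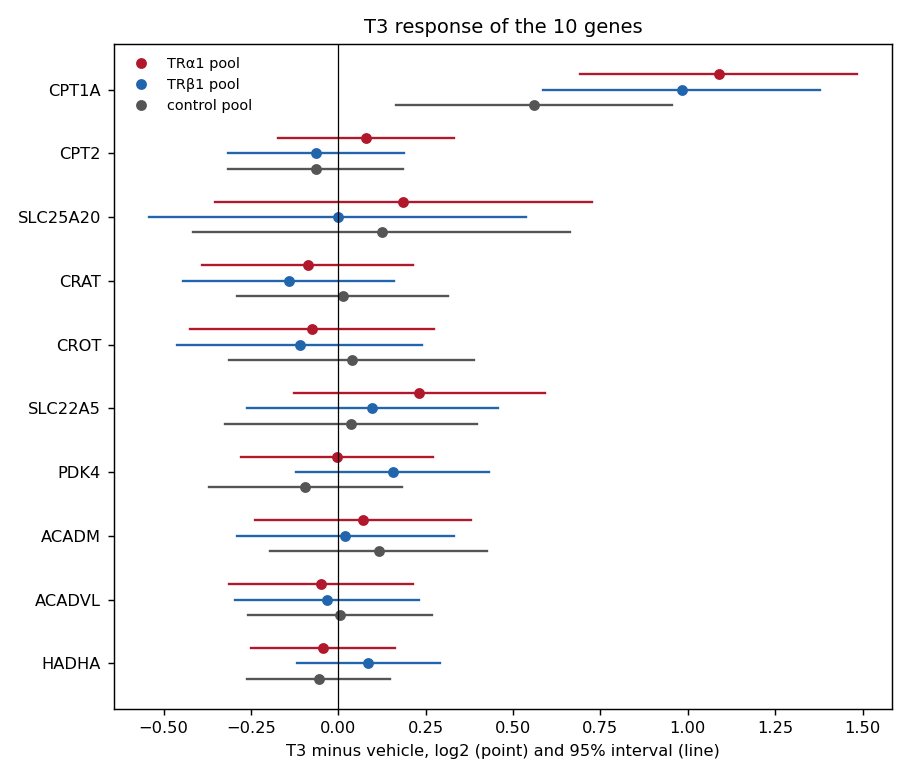
T3 minus vehicle on the log2 scale for the 10 genes in the TRα1, TRβ1 and control pools, with the point as the estimate and the line as its 95% interval without the block (3 arrays per group). CPT1A lies at 1.09, 0.98 and 0.56, and every interval of the other 9 genes spans 0.

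The partners of CPT1A in the shuttle did not pass in any T3 comparison, with or without the block. CPT2 had 6.93, 7.16 and 6.98 on T3 against 6.95, 6.98 and 6.90 on vehicle in the TRα1 pool. With TRβ1 it had 6.99, 6.78 and 6.58 on T3 against 6.85, 6.97 and 6.71 on vehicle. In the control pool it had 6.97, 7.20 and 7.23 on T3 against 7.26, 7.21 and 7.12 on vehicle. The groups overlapped in each pool, T3 was the higher array in 4 of 9 pairs, and the mean difference over the pools was -0.02 (-0.16 to 0.13).

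SLC25A20, the carrier, had 7.67, 7.19 and 7.30 on T3 against 7.60, 6.96 and 7.04 on vehicle in the TRα1 pool. It had 7.48, 6.96 and 6.70 against 7.44, 6.85 and 6.85 with TRβ1, and 7.42, 6.84 and 6.67 against 7.20, 6.70 and 6.66 with the empty plasmid. These levels differed more by replicate number than by hormone: the 6 arrays of number 1 averaged 7.47, those of number 2 6.92 and those of number 3 6.87. T3 was higher than vehicle in 8 of 9 pairs, by up to 0.26. The mean response over the pools was 0.10, with an interval of -0.21 to 0.41 without the block and of 0.0007 to 0.20 with it. Its unadjusted p with the block was 0.0486 and its limma adjusted p 0.477, so it did not pass.

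Outside the shuttle, CRAT transfers short-chain acyl groups and CROT medium-chain acyl groups of peroxisomal origin to carnitine, and SLC22A5 is the plasma membrane carnitine transporter OCTN2. The mean T3 response was -0.07 (-0.25 to 0.10) for CRAT and -0.05 (-0.25 to 0.15) for CROT. All 3 TRβ1 pairs of CRAT were lower on T3, by 0.07 to 0.19, and its groups overlapped. SLC22A5 had 6.88, 7.56 and 7.09 on T3 against 6.77, 7.22 and 6.86 on vehicle in the TRα1 pool, which was higher in 3 of 3 pairs but overlapping. Over the 3 pools its response was 0.12 (-0.09 to 0.33), higher in 7 of 9 pairs.

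The enzymes that shorten the chain had mean responses between -0.03 and 0.07. HADHA, which carries the hydratase and long-chain hydroxyacyl-CoA dehydrogenase activities of the trifunctional protein, had a mean response of -0.0048 (-0.12 to 0.11), the narrowest interval of the 10 genes. ACADVL, which starts on very long chains, had -0.03 (-0.18 to 0.13). ACADM, which starts on medium chains, had 0.07 (-0.11 to 0.25) and was higher on T3 in 7 of 9 pairs.

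PDK4 inhibits pyruvate dehydrogenase and so turns cells from glucose to fatty acid use, and T3 raises it in rat liver. Here it had 3.45, 3.41 and 3.52 on T3 against 3.36, 3.47 and 3.57 on vehicle in the TRα1 pool. It had 3.42, 3.53 and 3.89 against 3.29, 3.62 and 3.47 with TRβ1, and 3.51, 3.50 and 3.58 against 3.44, 3.78 and 3.65 with the empty plasmid. Its mean response was 0.02 (-0.14 to 0.18). On 16 of 18 arrays these values lay below the lower quartile of all features, and with no detection calls in the data, whether the probe was above background is not known here.

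The comparison of receptor pools with the control pool on vehicle asks for differences that do not need added hormone. Without the block, 0 of the 10 genes passed in either pool, where limma called 0.307% of features for TRα1 and 0.117% for TRβ1. CRAT for TRα1 and CPT2 for TRβ1 had an unadjusted limma p under 0.05, as did 4.76% and 3.51% of all features in these comparisons. Both comparisons share the control arrays.

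On vehicle, CPT2 had 6.95, 6.98 and 6.90 with TRα1 and 6.85, 6.97 and 6.71 with TRβ1, against 7.26, 7.21 and 7.12 in the control pool. All 6 receptor arrays lay below all 3 control arrays, which 0.788% of features showed. The differences were -0.25 ± 0.12 (SE) for TRα1 and -0.35 ± 0.12 (-0.60 to -0.10) for TRβ1, with limma adjusted p of 1.0 and 0.998 without the block. With the block these were 0.278 and 0.169, and 0.735% of features passed for TRβ1. CRAT had 7.77, 8.06 and 8.0 in the TRα1 pool against 7.61, 7.68 and 7.51 in the control pool, without overlap, and a difference of 0.34 ± 0.14 (limma adjusted p = 0.907 when unblocked, 0.107 when blocked). ACADVL had 8.91, 9.0 and 8.93 with TRα1 against 8.85, 8.49 and 8.89 with the empty plasmid, and SLC22A5 had 6.90, 7.09 and 6.80 with TRβ1 against 6.73, 6.79 and 6.79, also without overlap. Neither passed in either fit. In all, 3 of the 10 genes did not overlap in the TRα1 comparison, beside 7.67% of features, and 2 of 10 in the TRβ1 comparison, beside 6.59%.

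The block brought 1 gene past the threshold on vehicle. SLC25A20 had 7.60, 6.96 and 7.04 in the TRα1 pool against 7.20, 6.70 and 6.66 with the empty plasmid. The difference was 0.35, and TRα1 was higher in every same-numbered pair although the groups overlapped. Its standard error was 0.25 without the block (limma adjusted p = 1.0) and 0.08 with it (limma adjusted p = 0.0423, where 2.07% of features passed). Leaving out any of the 6 arrays ended this call, with adjusted p of 0.0821 to 0.168 and differences of 0.32 to 0.39. Of the 7 measured hepatocyte markers, 1 passed in the same comparison, as lower and only with the block. This was TTR, transthyretin, at -0.59 in the TRα1 pool (limma adjusted p = 0.211 when unblocked, 5.05e-04 when blocked). The 7 markers had a median difference of -0.16 and a highest of 0.35, and 3 of them were above 0. Whether TTR has a part in the SLC25A20 difference was not tested. CPT1A itself differed on vehicle by 0.22 ± 0.19 (SE without the block) for TRα1 and 0.18 ± 0.19 for TRβ1, and ACADM by -0.25 ± 0.15 and -0.31 ± 0.15. In every same-numbered pair both receptor pools were above the control pool for CPT1A and below it for ACADM. None of these differences passed in either fit. The shares of all features with such pair patterns on vehicle were not counted, and both receptor pools were set against the same control arrays.

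**Figure D3:**
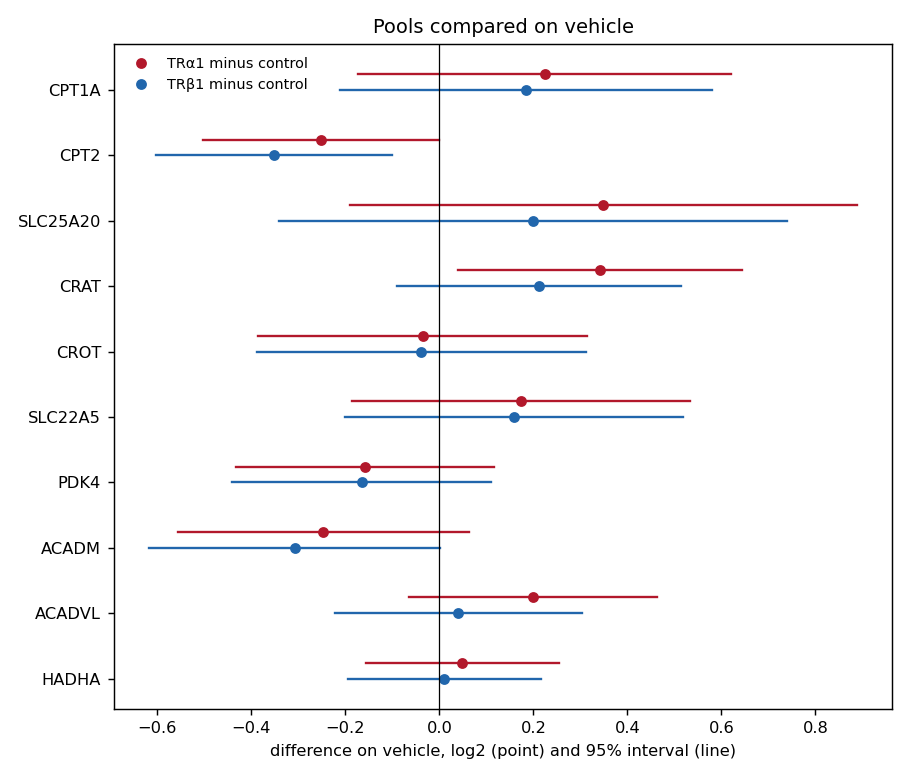
Difference on vehicle, log2, of the TRα1 and TRβ1 pools from the control pool for the 10 genes, with the point as the estimate and the line as its 95% interval without the block (3 arrays per group). CPT2 lies at -0.25 and -0.35, CRAT at 0.34 and 0.21, and SLC25A20 has wide intervals around 0.35 and 0.20.

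The genes around the shuttle were read from 9 lists of 106 genes, of which 93 were measured: carnitine supply, fatty acid activation, malonyl-CoA and AMPK, pyruvate dehydrogenase, other mitochondrial and peroxisomal oxidation enzymes, ketogenesis, PPAR and PGC-1 regulators, and PPARα targets. Averaged over the 3 pools, 1 of the 93 passed without the block, where 0.423% of all features passed. With the block 3 of the 93 passed as higher and 2 as lower, beside 1.36% and 0.331% of all features. The median response of the 93 was -0.025, beside -0.014 over all features tested. The 3 that rose were all acyl-CoA synthetases, of the 15 measured genes of fatty acid uptake and activation, a list whose own median was -0.03.

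ACSL1, the synthetase that activates long-chain fatty acids in liver, had 9.72, 10.06 and 10.14 on T3 against 9.26, 9.55 and 9.39 on vehicle in the TRα1 pool. It had 9.11, 9.53 and 9.49 against 8.86, 9.14 and 8.90 with TRβ1, and 9.09, 9.41 and 9.57 against 8.79, 9.11 and 9.06 with the empty plasmid. T3 was higher in 9 of 9 pairs, by 0.25 to 0.75, and the groups separated fully in the TRα1 pool. Over the pools ACSL1 rose by 0.45 ± 0.09, 1.37-fold, with a limma adjusted p of 0.0389 when unblocked and 6.88e-05 when blocked. Without the block it did not pass when all 32321 features were tested (limma adjusted p = 0.0725), and it passed in 5 of the 18 fits that left out a single array. With the block it passed in 18 of 18. In the TRα1 pool alone the response was 0.58, passing with the block (limma adjusted p = 0.0028) and not without it.

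ACSL5 and ACSL4, which activate further long-chain acids, with arachidonic acid a preferred substrate of ACSL4, passed only with the block. ACSL5 differed by 0.26 ± 0.11 over the pools (limma adjusted p = 0.00824 with the block, 1.0 without) and in the TRα1 pool by 0.42 (0.034 with the block, 1.0 without). ACSL4 differed by 0.20 ± 0.15 (limma adjusted p = 0.0416 with the block, 1.0 without), and 3 of the 18 blocked fits that left out an array kept it. Both were higher on T3 in 9 of 9 pairs. For ACSL5, as for CPT1A, each of the 6 receptor-pool responses (0.218 to 0.503) exceeded each of the 3 control responses (0.039 to 0.180). Such a separation was shown by 1.58% of all features. In tests of the difference from control, 0 of the 15 uptake and activation genes, ACSL5 included, passed in either fit for either receptor pool. The differences of ACSL1 responses from the control pool, 0.21 ± 0.22 for TRα1 and 0.04 ± 0.22 for TRβ1, did not pass.

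**Figure D4:**
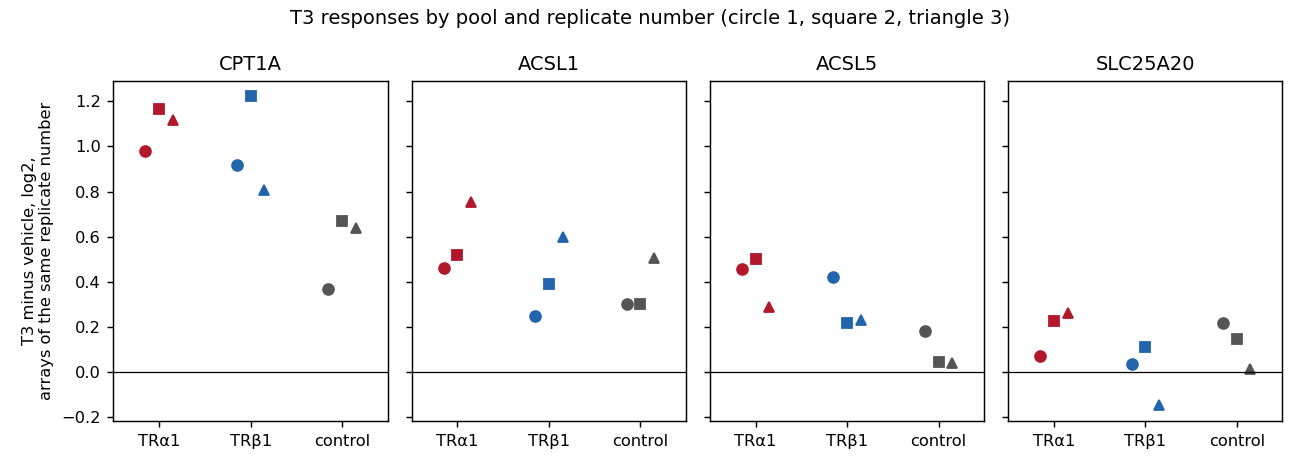
T3 minus vehicle on the log2 scale within each pair of arrays of the same replicate number, for CPT1A, ACSL1, ACSL5 and SLC25A20 in the TRα1, TRβ1 and control pools (3 pairs per pool). The 6 receptor-pool responses of CPT1A (0.81 to 1.22) lie above its 3 control responses (0.37 to 0.67), and those of ACSL5 (0.218 to 0.503) lie above its control responses (0.039 to 0.180), while those of ACSL1 overlap. Such a separation was shown by 1.58% of all features.

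Of 12 PPAR and PGC-1 regulators, 2 were lower with the block. PPARG, the adipocyte member of the PPAR receptors, fell by 0.25 over the pools (limma adjusted p = 0.0398 with and 0.424 without the block) and was lower on T3 in 9 of 9 pairs. The share of all features lower in all 9 pairs was not counted. PPARGC1A, the coactivator PGC-1α, fell by 0.22 (limma adjusted p = 0.0215 with and 1.0 without the block) and was lower in 8 of 9 pairs. Of the 18 blocked fits that left out an array, 3 kept PPARG and 9 kept PPARGC1A. PPARD was higher in 9 of 9 pairs, at 0.27 ± 0.13, and passed in neither fit.

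In the other 7 lists 0 genes passed in either fit over the pools. Among 8 genes listed under carnitine supply and other carnitine genes, the largest mean differences were -0.10 for SLC25A29 and -0.06 for ALDH9A1, an enzyme of carnitine synthesis. Among 11 genes of malonyl-CoA and AMPK they were -0.14 for PRKAG2 and 0.12 for PRKAB2, both regulatory subunits of AMPK. Among 10 pyruvate dehydrogenase genes the phosphatase PDP1 differed by -0.16 and the core subunit DLAT by 0.13.

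Among 15 further mitochondrial oxidation enzymes ACADS and ACAD10 differed by -0.09 each, and among 8 peroxisomal ones EHHADH by -0.12 and the thiolase ACAA1 by -0.11, lower in 9 of 9 pairs for ACAA1. Of 3 ketone body genes, listed under ketogenesis, BDH1 differed by -0.18 and OXCT1 by -0.03. Of 11 PPARα targets TXNIP differed by -0.26, lower in 9 of 9 pairs. ANGPTL4, a secreted inhibitor of lipoprotein lipase, differed by 0.42 with TRα1 and 0.36 with TRβ1, against -0.11 with the empty plasmid. None of these values passed, and the share of all features lower in all 9 pairs was not counted.

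**Figure D5:**
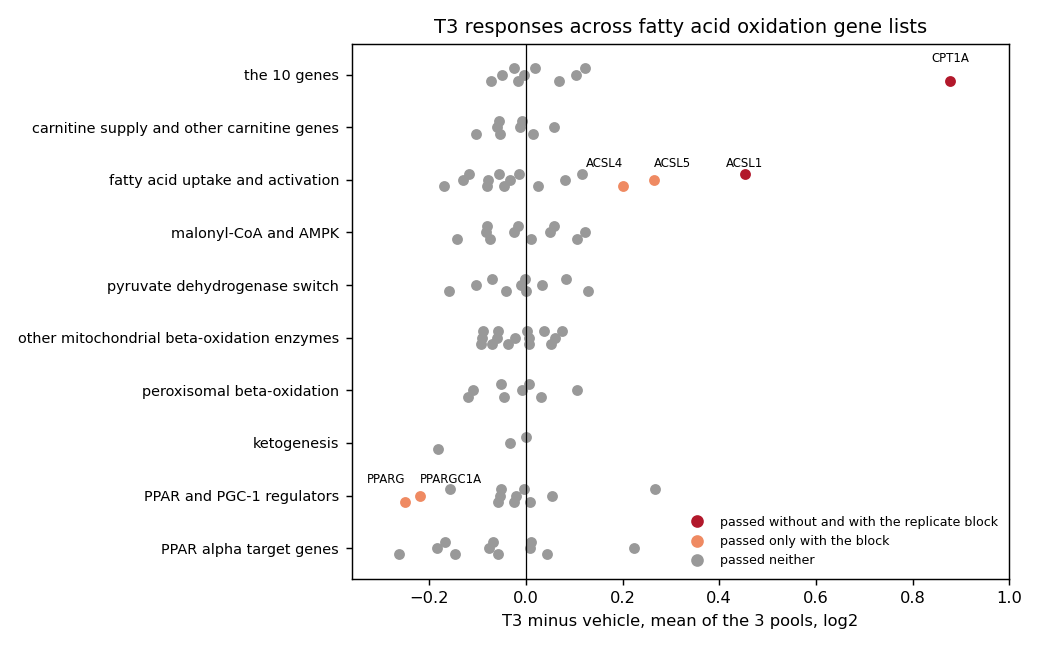
T3 minus vehicle on the log2 scale, averaged over the 3 pools, for the 10 genes and the 93 measured genes of 9 lists, 1 point per gene, coloured by whether the gene passed without and with the replicate block. CPT1A at 0.88 and ACSL1 at 0.45 passed in both fits, and ACSL5, ACSL4, PPARG and PPARGC1A only with the block.

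The genes whose pattern was most like that of CPT1A were ranked by Pearson correlation over the 18 arrays, after the mean of each replicate number was subtracted, among 10003 single-gene features with a mean of at least 6. The top 8 were ZNF563, USP30, SLC25A51, HIF1A, SLC38A3, SERPINB1, ZNF165 and CMIP, with r between 0.953 and 0.966. The 18 arrays fall into 6 groups, so shared responses to T3 weigh heavily in these values, and 3 of the 8 also led when plain values were ranked. SLC25A51, the mitochondrial NAD carrier, differed on T3 by 0.89 with TRα1, 0.77 with TRβ1 and 0.41 with the empty plasmid. HIF1A, a subunit of the hypoxia-inducible factor, differed by 0.58, 0.61 and 0.51 in the same pools. Of the other 9 genes the nearest to CPT1A were SLC22A5 (r = 0.65) and SLC25A20 (r = 0.56), and the others lay between -0.31 and 0.21.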

How the data were processed

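Expression was measured on 18 arrays, 3 in each of 6 groups (HepG2 pools with TRα1, TRβ1 or the empty plasmid, each on T3 or vehicle). The deposited values are log2 levels per feature from RMA. The submitters' processing notes name R 2.7.1 for it. RMA sets arrays to a shared distribution, so a shift common to all genes would not show. Depth has no meaning for arrays, and 3 arrays per group limit the precision. The genome build of the array annotation was not given in the sources used here.

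A model with the 6 groups was fitted to the 20546 features with a symbol using limma 3.58.1 in R 4.3.3, with 10 contrasts, two-sided moderated tests and Benjamini-Hochberg adjustment within a contrast (threshold 0.05, 95% intervals). The fit was tested on simulated data. Deviations from the group means correlated positively in all 45 array pairs with the same replicate number and different groups (lowest 0.183, median 0.498). The 90 other pairs had a median of -0.382 and a highest value of 0.330. Deviations cancel within a group, so the negative median follows in part from the positive one. Of the arrays, 18 of 18 matched best with their own number. The numbers were therefore taken to pair the arrays, and a fit with the number as a block is given where it changes a call. No 2 arrays held identical values.

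The 10 genes and the lists were chosen with earlier results of these data known. All 10 genes were named, list genes that passed in a T3 contrast, and the 2 with the largest mean response in each list, plus the 8 genes most like CPT1A. Alternatives were single arrays or replicate numbers left out, all 32321 features, a mean of at least 6, array weights, an intensity trend, median centring and the arrays of 1 pool alone.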

Additional observations from a re-analysis of the deposited data

Results flagged for a closer look

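HADHA is listed here because its T3 responses pointed in opposite directions in the receptor pools. It was higher on T3 in all 3 pairs of the TRβ1 pool, at 0.086 on the log2 scale on average (0.078 to 0.101), and lower in all 3 pairs of the TRα1 pool, at -0.044 on average (-0.062 to -0.033). The control pool was also lower in 3 of 3 pairs. How many of all features show such opposite directions in the receptor pools was not counted, so how unusual the HADHA pattern is remains unknown. The difference between the isoforms, 0.13 ± 0.14 (SE), did not pass (limma adjusted p = 1.0), and both responses are small beside the CPT1A response.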

How the results depend on the processing

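CPT1A in the TRα1 pool, at 1.09, was no longer called when all features were tested (adjusted p = 0.0547) or when only the 6 arrays of that pool were fitted (0.438), so that 0 of the 10 genes passed there. Without single arrays or replicate numbers it ranged from 0.91 to 1.23, with 0 to 1 of the 10 genes called. In the TRβ1 pool, CPT1A passed with the replicate block (0.98) and with the block and median centring, added after seeing the data (0.97), with 1 gene called in each, and under every omission with the block, with 1 gene called. Over omissions in both fits it ranged from 0.80 to 1.11, with 0 to 1 gene called. The mean over the pools ranged from 0.81 to 0.94 under the omissions of single arrays or replicate numbers, and was not called without replicate 3 (0.89). The block made 1 of the 10 genes pass on vehicle for TRα1 against control, against 0 without it. Other pathway genes called over the pools were 1 without the block, 5 with it, 4 with block and centring, 0 with all features tested, and 0 to 4 over the omissions in both fits. Across 52 settings and 3495 values, 292 that were not called changed sign, the largest 0.21 in size, and no called value did. The causes of these changes were not tested. PDK4 has no value under the minimum mean of 6. Each gene had 1 feature, so other features could not be tried.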
